A study of Danio rerio with 6 samples.

Results

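Znf711 is a zinc finger transcription factor of the family of Zfx and Zfy, and Phf8 is a histone demethylase with a JmjC catalytic domain and a PHD finger. The study's title names a complex of both in neutrophil development. The 5 genes described here are znf711, phf8 and the other members of the Kdm7 family of demethylases, phf2, kdm7aa and kdm7ab. They were taken by their symbols among the 32520 Ensembl genes of the tables, and each symbol matched 1 row. All 5 passed the filter on low counts, among 12471 Ensembl genes that did so, or 16637 of 59330 rows with unnamed gene models included.

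Polyadenylated RNA was sequenced from zebrafish cells that the labels call mpx+ neutrophils, on day 2, at 48 hours post fertilisation in all 6 libraries. The znf711 MO libraries, 3 in number, came from Tg(mpx:eGFP) fish whose genotype is given as znf711 knockdown and whose treatment is given as znf711 MO, a morpholino, which is an antisense oligonucleotide that blocks translation or splicing of its target transcript. The control libraries, also 3, came from Tg(mpx:eGFP) fish with the genotype WT and the treatment control. What the control fish received, the morpholino's target site and dose, and whether a library pooled several fish are not stated in the sources used here. The design text describes enriched GFP-positive cells and names a znf711 mutant line where the sample labels name a morpholino, so the groups here follow the sample labels. The reporter marks cells that use the mpx promoter.

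In humans, ZNF711 binds promoters and recruits PHF8, and changes in either gene are known causes of X-linked intellectual disability. The PHD finger of PHF8 reads trimethylated lysine 4 of histone H3, a mark of active promoters, and its JmjC domain removes repressive methyl groups from lysine 9 of histone H3 and lysine 20 of histone H4. PHF2 and KDM7A share this build: human PHF2 acts on lysine 9, and human KDM7A acts on lysines 9 and 27 of histone H3. Zebrafish has a pair of KDM7A genes, kdm7aa and kdm7ab.

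Total counts were 1629804, 12093109 and 9550796 in znf711 MO replicates 1 to 3, against 7181804, 9311439 and 7635673 in control replicates 1 to 3. znf711 MO replicate 1 stood apart: it had counts for 8041 Ensembl genes, while each of the others had counts for 13434 to 16074. Of the neutrophil genes, mpx and npsn had at least 1042 counts in every library and lcp1 at least 1816, whereas lyz had at most 8 and coro1a at most 1. In znf711 MO replicate 1, scpp8 and ponzr6 also fell to 2 counts. Whether unnamed gene models held counts of lyz or coro1a is not given here. A list of 18 neutrophil markers summed to 4903, 17860 and 37700 CPM in znf711 MO replicates 1 to 3, against 4379, 16880 and 19160 CPM in control replicates 1 to 3. Erythroid markers summed to 21570, 11690 and 2603 CPM against 16960, 5294 and 3623 CPM, so that they exceeded the neutrophil markers in replicate 1 of either group. In such bulk libraries fewer cells of a type and less RNA per cell cannot be told apart. Levels below are CPM, the share of a library that a gene took, adjusted by TMM, a factor that corrects for library composition, and CPM of a marker sum is taken over all counts without that factor.

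None of the 5 genes passed the test between the groups. The test was edgeR's quasi-likelihood test, with p-values adjusted by Benjamini-Hochberg over all 16637 rows and a threshold of 0.05, at which the share of all rows called was 0%. By edgeR, 174 rows, or 1.05%, had an unadjusted p under 0.05, and none of the 5 genes was among them. DESeq2 called 140 rows, or 0.685% of the 20450 it tested, and limma-voom called 0, none of the 5 among them. For each of the 5 genes the libraries of the groups overlapped. Over all rows 7.44% did not overlap, 2.09% with every znf711 MO library higher and 5.35% with every znf711 MO library lower. The 2 groups therefore could not be told apart for this family at this spread, and the intervals given with each gene show which differences the data would still allow.

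**Figure D1:**
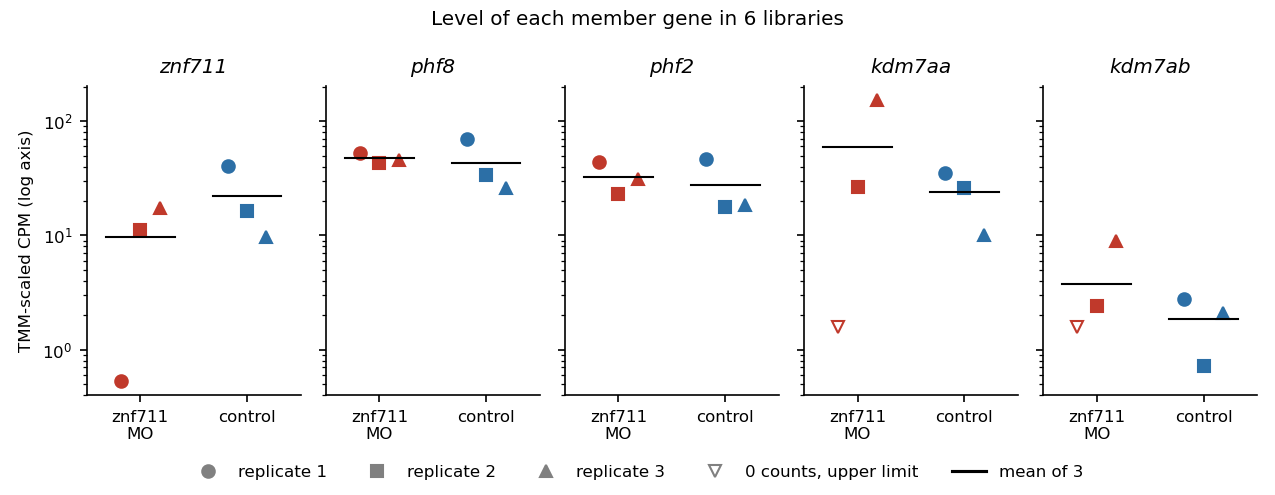
Level of each gene in TMM-scaled CPM on a log axis, with 1 symbol for each library and a line at the mean of 3; open triangles mark 0 counts, drawn at the limit of 1.58 CPM that a count of 0 allows. For phf8 and phf2 all libraries lie within 17.6 to 70.1 CPM, whereas kdm7aa runs from 0 counts in znf711 MO replicate 1 to 153 CPM in znf711 MO replicate 3.

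The transcript of znf711, the gene that the morpholino is directed at, comes from the minus strand of chromosome 14 in GRCz11, between 11975344 and 12020653 (ENSDARG00000071868). It had 1, 120 and 182 counts in znf711 MO replicates 1 to 3, against 348, 134 and 60 counts in control replicates 1 to 3. This corresponds to 0.527, 11.1 and 17.4 CPM in the znf711 MO libraries, against 40.4, 16.2 and 9.62 CPM in the control libraries. Control replicate 1 was the highest and znf711 MO replicate 1 the lowest, while the other 4 libraries lay between 9.62 and 17.4 CPM, 2 from each group. The mean level was 9.64 ± 8.502 CPM in the znf711 MO group and 22.1 ± 16.2 CPM in controls (SD, n = 3 each). The log2 fold change was -1.17 ± 1.29 (SE), with a 95% interval of -3.90 to 1.55 and an edgeR adjusted p of 0.9999.

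That difference rested on the replicate 1 libraries. Without control replicate 1 the log2 fold change of znf711 was -0.41, without znf711 MO replicate 1 it was -0.66, and without both of them it was 0.13, of the opposite sign. Since a morpholino can block translation and leave RNA amounts as they are, the znf711 counts are no test of the labels.

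The single count of znf711 in znf711 MO replicate 1 has an exact Poisson interval with an upper bound of 5.57 counts, or 2.94 CPM, below the 9.62 CPM of the lowest other library. Intervals and limits of this kind cover counting error only. Low counts were common in this library. Of 5733 Ensembl genes with at least 60 counts in each of the other 5 libraries, 915, or 15.96%, had 0 or 1 count in it. The share was 34.5% (557 of 1613) among genes whose lowest count in the other 5 libraries lay between 60 and 120, as that of znf711 did.

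The adjacent gene zgc:66447, which lies 282 bases beyond the higher end coordinate of znf711 on the same strand, had 49, 130 and 110 counts in znf711 MO replicates 1 to 3, against 225, 133 and 89 counts in control replicates 1 to 3. This neighbour thus kept 49 counts in the library where znf711 had 1. Of genes whose lowest count in the other 5 libraries lay between 60 and 120, 34.5% had 0 or 1 count there.

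The demethylase gene phf8 (ENSDARG00000006584, chromosome 23, 27591366 to 27608257, minus strand) was at 52.7, 43.3 and 46.0 CPM in znf711 MO replicates 1 to 3, against 70.1, 33.6 and 25.97 CPM in control replicates 1 to 3. The znf711 MO libraries lay close together and inside the range of the controls. The highest of them was 1.22 times the lowest, against 2.70 times in controls, a difference in spread that was not tested. The mean was 47.3 ± 4.86 CPM in the znf711 MO group and 43.2 ± 23.6 CPM in controls (SD, n = 3 each), a log2 fold change of 0.13 ± 0.66 with a 95% interval of -1.27 to 1.53 (edgeR adjusted p = 0.9999). Its sign turned without control replicate 2 (-0.06) and without control replicate 3 (-0.17).

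The related gene phf2 (ENSDARG00000018691, chromosome 11, 27644524 to 27702835, minus strand), was at 44.3, 23.0 and 30.9 CPM in znf711 MO replicates 1 to 3, against 46.3, 17.6 and 18.3 CPM in control replicates 1 to 3. Replicate 1 was the highest library of either group. The mean was 32.7 ± 10.8 CPM in the znf711 MO group and 27.4 ± 16.4 CPM in controls (SD, n = 3 each), a log2 fold change of 0.25 ± 0.81 with a 95% interval of -1.46 to 1.97 (edgeR adjusted p = 0.9999). Leaving out control replicate 2, control replicate 3 or znf711 MO replicate 1 brought it to between -0.04 and -0.03. An antisense gene, CR931782.2, overlaps 5136 bases at the 3′ end of phf2 and had 0 counts in every library.

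The level of phf8 stood above that of phf2 in every library. Per kilobase of listed length, phf8 was 1.24, 1.96 and 1.55 times phf2 in znf711 MO replicates 1 to 3, against 1.58, 1.99 and 1.48 times in control replicates 1 to 3. Over the 6 libraries the difference was 0.69 ± 0.26 on the log2 scale (SD, n = 6). An exact sign-flip permutation test, two-sided, gave p = 0.03125, the smallest that 6 libraries allow, and 0.0625 after adjustment over the 4 neighbouring pairs in the order of levels. That order, and so the pairs tested, was taken from the levels in these same 6 libraries. The p-values of the order are therefore no separate support for it.

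Set against phf8 in the same library, znf711 was at 0.0158, 0.404 and 0.598 times the phf8 level per kilobase in znf711 MO replicates 1 to 3, against 0.912, 0.763 and 0.586 times in control replicates 1 to 3. Here the groups overlapped, with znf711 MO replicate 3 at 0.598 above control replicate 3 at 0.586. The lowest ratio, 0.0158, rests on 1 count of znf711 in znf711 MO replicate 1. There 34.5% of genes whose lowest count in the other 5 libraries lay between 60 and 120 had 0 or 1 count. How such ratios of other genes spread between the groups was not determined. The ratio is a description of 2 genes of the list and was not tested.

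The demethylase gene kdm7aa (ENSDARG00000018111, chromosome 4, 22484830 to 22519525, minus strand) had 0, 288 and 1604 counts in znf711 MO replicates 1 to 3, against 302, 217 and 63 counts in control replicates 1 to 3. In CPM these were 0, 26.5 and 153 in the znf711 MO libraries, against 35.1, 26.2 and 10.1 in the control libraries. The znf711 MO group thus held both the lowest and the highest library, and znf711 MO replicate 3 was 4.36 times the highest of the other 5.

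The mean of kdm7aa was 59.8 ± 81.7 CPM in the znf711 MO group and 23.8 ± 12.7 CPM in controls (SD, n = 3 each), a log2 fold change of 1.33 ± 1.43 with a 95% interval of -1.90 to 4.57 (edgeR adjusted p = 0.9999). That value came to -0.80 without znf711 MO replicate 3 and to 1.89 without znf711 MO replicate 1, at an unadjusted edgeR p of 0.0138 and an adjusted p of 0.9998. Without both replicate 1 libraries it was 2.29.

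The 0 counts of kdm7aa in znf711 MO replicate 1 allow up to 1.58 CPM, below the 10.1 CPM of the lowest other library. Of the genes whose lowest count in the other 5 libraries lay between 60 and 120, as that of kdm7aa did, 499 of 1613, or 30.9%, had 0 counts there. The nearest gene, ndufb2, on the other strand at a distance of 1698 bases, had 284, 741 and 509 counts in znf711 MO replicates 1 to 3, against 320, 545 and 580 counts in control replicates 1 to 3, with no excess in znf711 MO replicate 3.

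The row named kdm7ab (ENSDARG00000018559, chromosome 25, 17244532 to 17310301, plus strand) had the fewest counts, 0, 26 and 93 in znf711 MO replicates 1 to 3, against 24, 6 and 13 in control replicates 1 to 3. The mean was 3.75 ± 4.59 CPM in the znf711 MO group and 1.87 ± 1.05 CPM in controls (SD, n = 3 each). Its log2 fold change was 1.02 ± 2.04, with a 95% interval of -3.29 to 5.34 and an edgeR adjusted p of 0.9999, and it turned to -0.55 without znf711 MO replicate 3.

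Most counts at these coordinates stood in other rows. The tables also hold unnamed gene models on alternate scaffolds, which are other versions of a chromosome region in the GRCz11 assembly. On the scaffold CHR_ALT_CTG25_1_10, 3 such models lay on the plus strand within 1000 bases of the kdm7ab span. The longest, XLOC_073598, ran from 17283173 to 17308927 with a listed length of 4178 bases, and the files give it no gene name. Without the scaffold's sequence it cannot be shown that these models are kdm7ab, so values that include them describe the position and not the gene for certain.

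XLOC_073598 had 87, 291 and 633 counts in znf711 MO replicates 1 to 3, against 666, 163 and 324 counts in control replicates 1 to 3. Of all counts in the kdm7ab row and the 3 models, the models held 100%, 91.8% and 87.2% in znf711 MO replicates 1 to 3, against 96.6%, 96.5% and 96.2% in control replicates 1 to 3. The exact binomial 95% interval was 95.9% to 100% in znf711 MO replicate 1, 88.2% to 94.6% in znf711 MO replicate 2 and 84.6% to 89.6% in znf711 MO replicate 3. In controls the intervals lay between 92.6% and 98.7%.

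Counted together, the kdm7ab row and these models were at 45.9, 29.2 and 69.3 CPM in znf711 MO replicates 1 to 3, against 82.3, 20.9 and 54.8 CPM in control replicates 1 to 3. Every library then held at least 87 counts at this position, and control replicate 1 was the highest. The log2 fold change of the sum was -0.13 ± 0.68, with a 95% interval of -1.56 to 1.304 (edgeR adjusted p = 0.9998), against 1.02 for the named row alone. It turned to 0.34 without control replicate 1 and to 0.07 without znf711 MO replicate 2, and was -0.54 without control replicate 2 and -0.49 without znf711 MO replicate 3. This sum was chosen after the counts were seen.

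**Figure D2:**
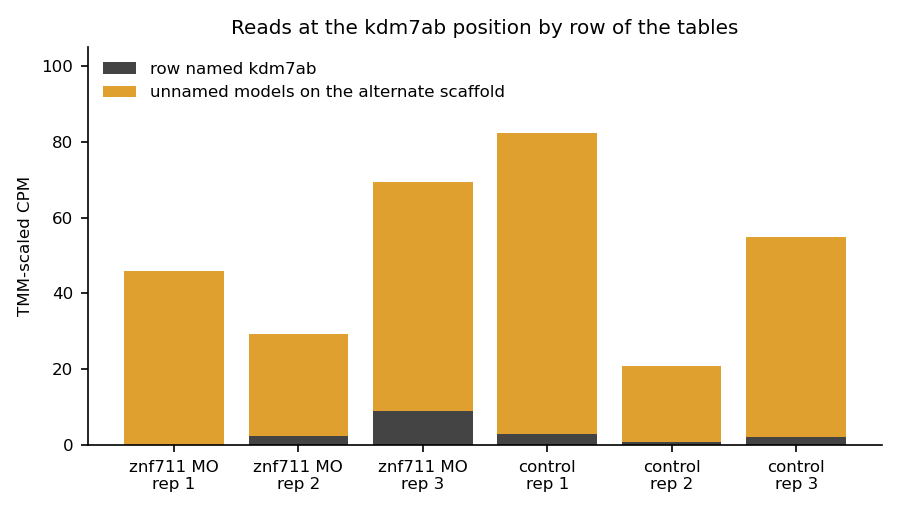
TMM-scaled CPM at the kdm7ab position in each of 6 libraries; bars start at 0 and are divided into the row named kdm7ab and the unnamed models on the alternate scaffold. The named row reaches at most 8.87 CPM, in znf711 MO replicate 3, while the whole bars reach 20.9 to 82.3 CPM.

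For znf711 the same search found 3 short models on an alternate scaffold of chromosome 14, with at most 2 counts in a library, and adding them left its log2 fold change at -1.18. For phf8, phf2 and kdm7aa no such model was found. The sum thus changed the description of kdm7ab alone among the 5 genes.

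**Figure D3:**
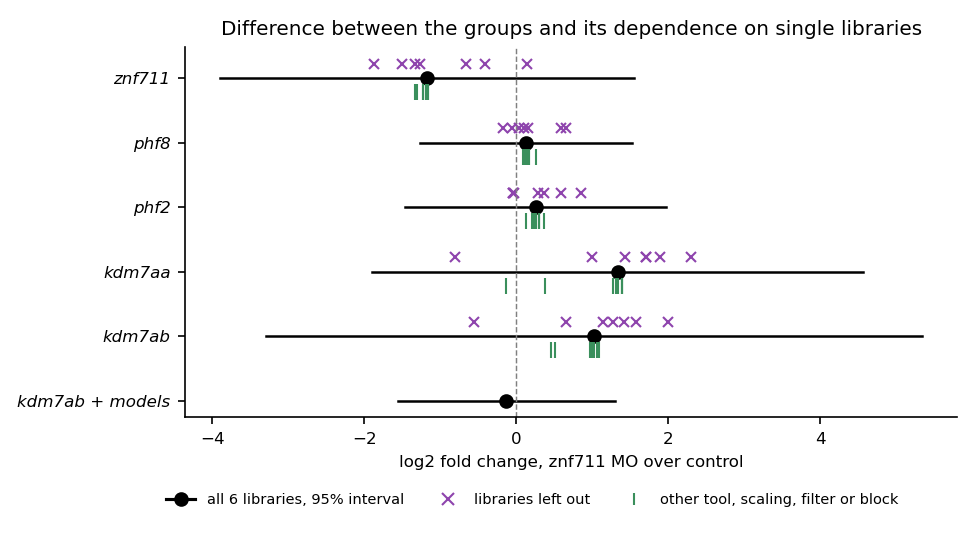
Log2 fold change of the znf711 MO group over controls for each gene and for the kdm7ab sum; black points and bars give edgeR with all 6 libraries and the 95% interval, crosses the fits with libraries left out, and green ticks the other tools, scalings, filters and the replicate block. Every interval covers 0, and the crosses of kdm7aa run from -0.80 to 2.29.

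The order of the levels was taken per kilobase of listed length over the 6 libraries. From high to low it was phf8, phf2, znf711, kdm7aa and the kdm7ab row, with means of 5.06 ± 1.72, 3.22 ± 1.36, 2.80 ± 2.38, 4.97 ± 6.65 and 0.292 ± 0.328 CPM per kilobase (SD, n = 6). The order follows the mean of log2 levels, so kdm7aa stands low in it through its 0 counts in znf711 MO replicate 1 although its arithmetic mean is near that of phf8. Between phf2 and znf711 the log2 difference was 0.77 ± 2.15 (SD, n = 6; exact permutation adjusted p = 0.917), and between znf711 and kdm7aa it was 0.01 ± 1.59 (adjusted p = 1.0). At these lengths neither pair differed beyond its spread, and phf2 was not tested against kdm7aa. Without znf711 MO replicate 1, where znf711 had 1 count and kdm7aa 0, these differences were -0.10 and -0.42. The first difference depends on the length used: phf2 lay above znf711 by 1.49 without division by length and by 1.38 with the deposited FPKM, in each case with an exact permutation p of 0.03125 and an adjusted p of 0.0625 over 6 libraries.

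The kdm7ab row lay below kdm7aa by 3.27 ± 1.77 on the log2 scale (SD, n = 6). In znf711 MO replicate 1 both had 0 counts and the difference there comes from the lengths alone. Over the other 5 libraries it was 3.89, in all 5 of the same sign (exact permutation p = 0.0625, the smallest that 5 libraries allow, adjusted p = 0.125). With the alternate-scaffold models counted, and the sum divided by the 9618 bases listed for the kdm7ab row, kdm7ab moved to the second place, 0.03 ± 0.69 below phf8 on the log2 scale (exact permutation adjusted p = 1.0 over 6 libraries). In that order it stood 0.66 ± 0.59 above phf2, in 6 of 6 libraries (exact permutation p = 0.03125, adjusted p = 0.125). The pairs of that order were again picked from the levels in these libraries. This place rests on that length: XLOC_073598 alone, over its own 4178 bases, was at 11.2 ± 5.11 CPM per kilobase (SD, n = 6), above the 5.06 CPM per kilobase of phf8. That comparison depends on the length of phf8 too. With the deposited FPKM XLOC_073598 lay below phf8 in znf711 MO replicate 2 (5.76 against 7.61) and control replicate 2 (4.19 against 5.84). In the other libraries it lay above.

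Levels between these genes depend on the length that is used. The listed lengths were 5656 bases for znf711, 8950 for phf8, 9333 for phf2, 8411 for kdm7aa and 9618 for kdm7ab. The lengths behind the deposited FPKM, as count and total give them, were 5656, 5110, 5802, 3466 and 5063 bases for the same genes. With the deposited FPKM the log2 difference of znf711 over kdm7aa was -1.21, so that kdm7aa stood above znf711 (exact permutation adjusted p = 0.125), and phf8 remained first and phf2 second.

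Within single libraries phf8 was the highest of the named rows per kilobase in 5 of 6 and kdm7aa in znf711 MO replicate 3. That library held 18.2 CPM per kilobase of kdm7aa and 5.14 CPM per kilobase of phf8. With the deposited FPKM kdm7aa also stood above phf8 in control replicate 2, at 6.72 against 5.84.

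Marker sums of other cell types were set beside these levels. Neural markers, 23 genes, summed to 4977, 2335 and 3912 CPM in znf711 MO replicates 1 to 3, against 4477, 1659 and 2296 CPM in control replicates 1 to 3. The most abundant of them, marcksl1b, was at 1034, 1251 and 2652 CPM against 1319, 1184 and 1755 CPM. The 3 libraries with the highest neural sums, znf711 MO replicates 1 and 3 and control replicate 1, were also the 3 with the highest phf8 and phf2 levels. For znf711 MO replicate 3 this rests on marcksl1b: without it the other neural markers summed to 3773, 1212 and 999 CPM in znf711 MO replicates 1 to 3, against 2895, 606 and 862 CPM in control replicates 1 to 3, and znf711 MO replicate 2 took the third place. That sum was chosen after the data were seen. The erythroid sums were also highest in znf711 MO replicate 1, control replicate 1 and znf711 MO replicate 2, so this order was not particular to neural markers. Counts were found for 20 to 24 of the 24 rows of the list in each library. The part of neural cells in the phf8 and phf2 levels was not tested.

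The neutrophil marker sum was highest in znf711 MO replicate 3, the library with 153 CPM of kdm7aa, and it was lowest in replicate 1 of either group. Those 2 libraries of low neutrophil level held 0 CPM of kdm7aa in the znf711 MO group and 35.1 CPM in controls. In znf711 MO replicate 1, 30.9% of genes whose lowest count in the other 5 libraries lay between 60 and 120 had 0 counts. Macrophage markers summed to 706, 2000 and 2879 CPM in znf711 MO replicates 1 to 3, against 706, 1003 and 2031 CPM in control replicates 1 to 3. Without their most abundant row, 1 of several named MFAP4, they summed to 342, 1081 and 1289 CPM against 351, 687 and 953 CPM. The macrophage genes c1qc and slc7a7 had at most 2 counts in a library. These values were chosen after the data were seen. The part of neutrophils and macrophages in the kdm7aa level was not tested.

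**Figure D4:**
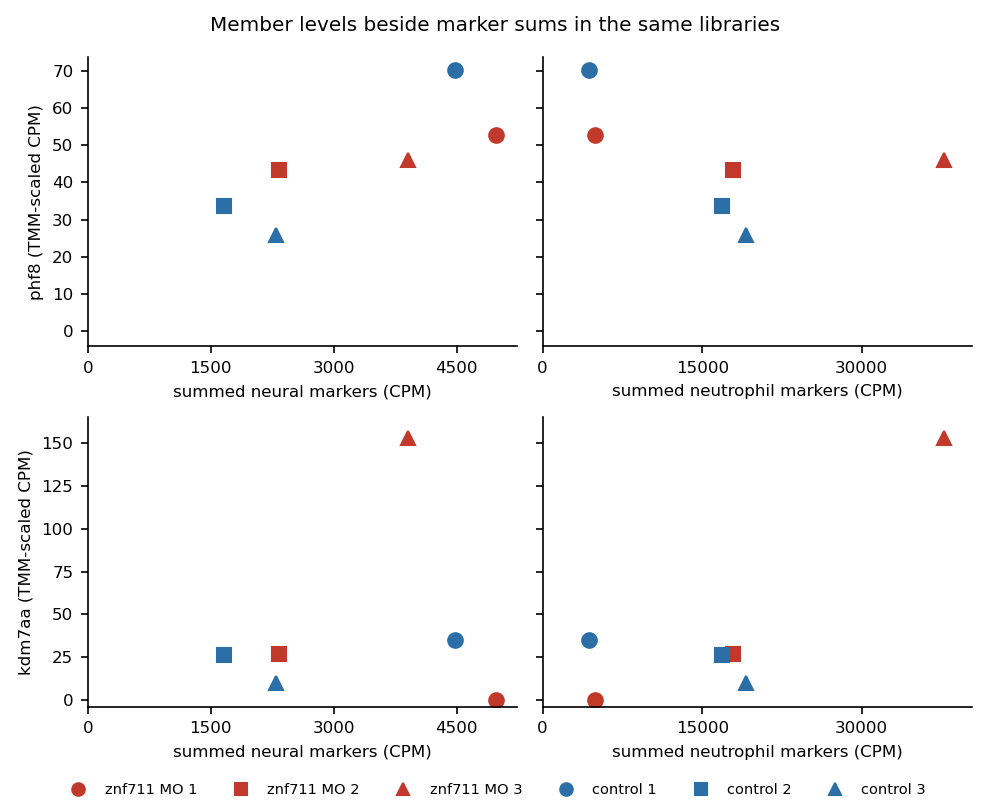
Levels of phf8 (upper row) and kdm7aa (lower row) in TMM-scaled CPM against the summed CPM of neural markers (left) and neutrophil markers (right), with 1 symbol for each of 6 libraries. phf8 is highest, at 70.1 CPM, in control replicate 1, where neural markers sum to 4477 CPM, and kdm7aa is highest in znf711 MO replicate 3, where neutrophil markers sum to 37700 CPM.

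Connective tissue markers were lower in every znf711 MO library, at 1130, 971.5 and 1077 CPM, against 2358, 1578 and 1227 CPM in controls. In no other of the 8 marker lists did the sums of the groups fail to overlap. For single rows, 5.35% of all rows tested had every znf711 MO library lower. None of the marker sums was tested between the groups. Endothelial markers summed to 232.5, 514 and 401 CPM in znf711 MO replicates 1 to 3, against 602, 626 and 508 CPM in control replicates 1 to 3. Muscle markers lay between 223 and 479 CPM in the znf711 MO group and between 172 and 254 CPM in controls, and epidermal markers between 206 and 508 CPM and between 135 and 370 CPM. The genes col6a3 of connective tissue, krt5, epcam and cldni of the epidermis, flt1 of the endothelium and mylpfa of muscle had 0 counts in every library. Whether unnamed gene models held counts of these genes is not given here. The most abundant genes of these tissues were the collagen gene col1a2 at 135 ± 14.7 CPM in the znf711 MO group and 282 ± 82.9 CPM in controls, the water channel gene aqp1a.1 at 80.1 ± 41.5 and 118 ± 40.4 CPM, the actin gene actc1b at 90.2 ± 60.8 and 21.8 ± 20.3 CPM, and the keratin gene krt8 at 203 ± 36.4 and 108 ± 50.0 CPM (SD, n = 3 each).

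The genes most like phf8 were sought among 7781 Ensembl genes with a symbol and a mean of at least 10 CPM, by the Pearson correlation of log2 CPM over the 6 libraries. The first 5 were the long non-coding RNA gene oip5-as1 (0.99), si:ch211-156j22.4 (0.98), the F-box gene fbxl5 (0.97), the scaffold gene homer3b (0.97) and the homeobox gene pbx4 (0.97). The gene si:ch211-156j22.4 lies 1536 bases from phf8 on the same strand and had 50, 242 and 259 counts in znf711 MO replicates 1 to 3, against 401, 154 and 73 counts in control replicates 1 to 3. Reads that run past a gene's end into its neighbour could not be told apart here. Like phf8, pbx4 was highest in control replicate 1, at 150 CPM, and lowest in control replicate 3, at 61.9 CPM. In all, 14 genes reached a correlation of 0.95 with phf8.

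With znf711 302 of the 7781 genes reached that value. The first 5 were the receptor phosphatase gene ptprsa (ENSDARG00000110940, 0.995), the scaffold gene dlg5a (0.995), the cryptochrome gene cry3b (0.993), adnp2a (0.993) and ranbp9 (0.992). In znf711 MO replicate 1 they had 0, 12, 1, 7 and 12 counts. Without that library their correlations with znf711 were 0.97, 0.96, 0.95, 0.97 and 0.94 over 5 libraries. The genes were picked over 6 libraries that include those 5, so these values are no separate check. How many genes reach 0.95 without that library was not determined. All these are descriptions of 6 libraries that differ in depth and in their marker sums.

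Among the 5 genes themselves, znf711 and phf8 had a correlation of 0.04 over 6 libraries. Without znf711 MO replicate 1 it was 0.86 over 5 libraries. For znf711 and phf2 the values were -0.23 and 0.85, so the 0.86 was not particular to phf8. For znf711 and kdm7aa they were 0.91 and 0.39, and for znf711 and the kdm7ab row 0.78 and 0.15. The correlation of phf8 and phf2 was 0.91 over 6 libraries and 0.94 over those 5. In znf711 MO replicate 1 phf8 and phf2 had 100 and 84 counts, at levels within the range of the other 5 libraries, while znf711 and kdm7aa had 1 and 0.

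Other demethylases were described next, from a list of 30 genes of the JmjC and LSD1 families outside Kdm7, of which 28 matched the tables. None of the 25 tested passed in edgeR in either direction, beside 0% of all rows tested. None had an unadjusted p under 0.05, beside 1.05% of all rows tested. The log2 fold change was above 0 for 6 and below 0 for 19, beside 7364 above and 9272 below over all rows tested. The median was -0.20, beside -0.12 over all rows tested. The H3 lysine 27 demethylase gene kdm6ba was the most abundant, at 149, 449 and 800 CPM in znf711 MO replicates 1 to 3, against 433, 415 and 378 CPM in control replicates 1 to 3. As for kdm7aa, the znf711 MO group held its lowest library in replicate 1 and its highest in replicate 3.

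The LSD1 gene kdm1a was at 165 ± 5.78 CPM in the znf711 MO group and 173 ± 51.7 CPM in controls. The H3 lysine 4 demethylase gene kdm5a was at 83.3 ± 36.5 CPM and 43.1 ± 9.68 CPM, with every znf711 MO library above every control library. It was 1 such gene of 25, beside 2.09% of all rows tested. The H3 lysine 9 demethylase gene kdm4b was at 56.2 ± 35.1 CPM in the znf711 MO group and 104.8 ± 34.0 CPM in controls (SD, n = 3 each). All 4 genes had an adjusted p of 0.9999 in edgeR.

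Genes that place methyl groups on lysines 9 and 27 of H3 and lysine 20 of H4 came next. Their marks are those that the Kdm7 family removes. Of 15 such genes tested 0 passed the threshold, beside 0% of all rows tested. The list's median log2 fold change was -0.23, with 5 above 0 and 10 below. Over all rows tested 7364 were above 0 and 9272 below. The lysine 20 methyltransferase gene kmt5aa was at 104 ± 25.2 CPM in the znf711 MO group and 120 ± 4.19 CPM in controls. The lysine 9 methyltransferase gene setdb1b was at 67.0 ± 24.7 and 88.5 ± 5.26 CPM, and ehmt1a, another, at 16.1 ± 12.6 and 31.9 ± 1.95 CPM, both with every znf711 MO library below every control library. These were 2 of 15, beside 5.35% of all rows tested. The Polycomb gene suz12b had 3, 23 and 18 counts in znf711 MO replicates 1 to 3, against 1, 8 and 0 counts in control replicates 1 to 3. In CPM every znf711 MO library was above every control library, 1 such gene of 15 beside 2.09% of all rows tested, while models at its position on an alternate scaffold held 867 counts over the 6 libraries. Its counts are therefore uncertain in the same way as those of kdm7ab.

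Readers of these marks gave 0 of 10 tested past the threshold, beside 0% of all rows tested. Of their log2 fold changes 6 were above 0 and 4 below, with a median of 0.11. Over all rows tested 7364 were above 0 and 9272 below. The heterochromatin protein genes cbx5 and cbx3a were at 160 ± 50.4 and 130 ± 44.2 CPM in the znf711 MO group, against 222 ± 27.5 and 134 ± 53.3 CPM in controls. Their relatives cbx1b and cbx3b had log2 fold changes of 2.78 ± 1.59 and 1.18 ± 1.12. In cbx1b, znf711 MO replicate 1 was at 50.1 CPM, against at most 6.72 CPM in the other 5 libraries.

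The next list held genes of H3 lysine 4 methylation, the mark to which the PHD finger of human PHF8 binds. It gave 0 of 16 tested past the threshold, beside 0% of all rows tested. The median was -0.25, with 4 above 0 and 12 below, beside 7364 above and 9272 below over all rows tested. The methyltransferase gene kmt2bb was at 213 ± 72.4 CPM in the znf711 MO group and 263 ± 62.6 CPM in controls. The cofactor gene hcfc1b was at 145 ± 24.6 and 190 ± 57.9 CPM. For cxxc1b, which codes for a CpG-binding subunit of the Set1 complexes, every znf711 MO library was below every control library, at 0, 10.1 and 8.58 CPM against 16.02, 16.1 and 24.4 CPM, 1 such gene of 16 beside 5.35% of all rows tested.

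A further list held genes of proteins known in mammals to act with PHF8, PHF2 or LSD1. Of 16 tested 0 passed the threshold, beside 0% of all rows tested. This list had a median of -0.20, with 4 above 0 and 12 below, beside 7364 above and 9272 below over all rows tested. Its most abundant members were kdm1a and hcfc1b again. It shares kdm1a, kdm5c, hcfc1a, hcfc1b and wdr5 with the lists above, so its split is not independent of theirs. The gene arid5b, whose human product forms a complex with PHF2, was at 0, 11.5 and 2.86 CPM in znf711 MO replicates 1 to 3, against 35.3, 7.37 and 24.2 CPM in control replicates 1 to 3. The corepressor gene CTBP1 was at 6.85 ± 6.20 CPM in the znf711 MO group and 26.2 ± 18.7 CPM in controls, and models at its position on an alternate scaffold held another 182 counts. For both genes znf711 MO replicate 1 had 0 counts, which allow up to 1.58 CPM.

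The gene zfx, the relative of znf711, was at 156, 66.4 and 79.4 CPM in znf711 MO replicates 1 to 3, against 150, 92.5 and 39.6 CPM in control replicates 1 to 3. In znf711 MO replicate 1 it had 295 counts, where znf711 had 1. The lowest count in the other 5 libraries was 247 for zfx and 60 for znf711, so the 2 genes differed in count range. The log2 fold change of zfx was 0.09 ± 0.57 (edgeR adjusted p = 0.9999). Of 11 genes tested in the list of zfx and other zinc finger factors, 0 passed, beside 0% of all rows tested. In this list 5 were above 0 and 6 below, with a median of -0.04. Over all rows tested 7364 were above 0 and 9272 below. The factor gene yy1a was at 142 ± 51.5 CPM in the znf711 MO group and 124 ± 81.5 CPM in controls, and patz1 at 20.1 ± 4.27 and 36.5 ± 4.26 CPM, with every znf711 MO library below every control library, 1 such gene of 11 beside 5.35% of all rows tested. The factor gene zbtb7a had 0, 28 and 0 counts in znf711 MO replicates 1 to 3, against 9, 15 and 22 counts in control replicates 1 to 3.

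**Figure D5:**
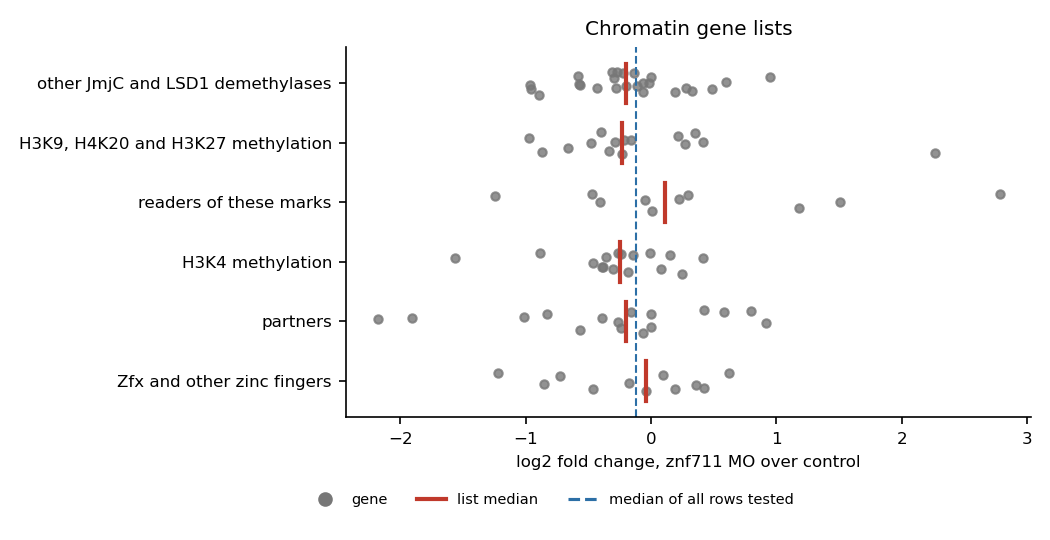
Log2 fold change of the znf711 MO group over controls for each tested gene of 6 chromatin lists, with the median of each list in red and the median of all rows tested, -0.12, as a dashed line. The list medians lie between -0.25 and 0.11, and single genes spread on both sides of 0 in every list.

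Without single libraries the medians of these lists moved and some changed sign. The other JmjC and LSD1 demethylases had a median of -0.01 without control replicate 1 and of 0.20 without both replicate 1 libraries, beside -0.11 and 0.02 over all rows tested. The reader list had -0.12 without control replicate 3. The partner list had 0.12 and the zinc finger list 0.08 without control replicate 1. The zinc finger list also turned with library totals as the only scaling, to 0.04, beside -0.02 over all rows tested. It was 1.6e-04 with another scaling, RLE size factors, and 0.03 without both replicate 1 libraries. The reader list turned as well without both replicate 1 libraries, to -0.05, and with no filter on low counts, to -0.005.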

How the data were processed

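For each library the authors deposited a table of raw counts and FPKM by gene, per the file headers. The build GRCz11 and the tools HISAT2 2.0.5, Trimmomatic, HTSeq, DESeq2 1.16.1 and edgeR are named in the submitters' processing notes, with no role or order. No source used here gives the annotation release, the strand setting or the treatment of multimapping reads, so reads of overlapping or duplicated loci may be split or lost. The deposited FPKM rest on a length that equals the listed one for 37.2% to 42.1% of counted Ensembl genes (tolerance 0.001), and they served only as an alternative for the order of levels. Listed lengths, labelled other, were used per kilobase.

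Counts were tested in edgeR 4.0.16 (R 4.3.3; filterByExpr with a minimum count of 10, TMM, robust quasi-likelihood, group as the only term). Levels are CPM of all counts with TMM. Each SE was derived from the F statistic and the log2 fold change. The p-values of the group comparison measure the spread between these 3 libraries a group, in edgeR with variance estimates that draw on all rows. Those of the order of levels measure the spread of differences between genes over all 6 libraries. The order of levels used log2 of counts plus 0.5 per kilobase. Limits take 3 counts for a count of 0. Alternatives used DESeq2 1.42.0, limma 3.58.1, 3 scalings, 2 filters, Ensembl rows alone, left-out libraries and a replicate block. The code was tested on simulated data. At the spread of these libraries, it recovered 43 of 100 simulated 16-fold changes and 3 of 100 simulated 4-fold changes. At a coefficient of variation of 0.2 it recovered 100 of 100 of either size.

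The 5 genes and all lists were chosen with earlier results of these data known. Of the list entries 6 had no match. In each chromatin list the 2 most abundant genes and the 2 of smallest unadjusted p are named, with the 5 genes most like znf711 and phf8, mpx, and the most abundant gene of each marker list. Genes next to the 5 on the chromosome, the alternate-scaffold models and markers at or near 0 are named outside this rule, after their values were seen. The neutrophil, macrophage and erythroid genes of that rule, npsn, MFAP4 and hbae3, were at 3146 ± 1847, 928 ± 574 and 7731 ± 6322 CPM in the znf711 MO group and 3159 ± 2161, 657 ± 575 and 5559 ± 4154 CPM in controls (SD, n = 3 each), and mpx at 2737 ± 2215 and 2014 ± 1306 CPM.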

Additional observations from a re-analysis of the deposited data

How the results depend on the processing

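None of the 5 genes, and none of the 93 to 103 genes of the chromatin lists and the family that were tested, passed under any alternative. Over all rows 140 passed with DESeq2 (112 higher, 28 lower) and 2 with no filter on low counts, and 0 to 2 when a library was left out (1 without control replicate 1, 2 without znf711 MO replicate 3). With a library left out, log2 fold changes ran from -1.87 to -0.41 for znf711, from -0.17 to 0.65 for phf8, from -0.04 to 0.85 for phf2, from -0.80 to 1.89 for kdm7aa and from -0.55 to 1.57 for the kdm7ab row. The sign of phf8 turned without control replicates 2 (-0.06) and 3 (-0.17), and that of phf2 without control replicates 2 (-0.04) and 3 (-0.03) and znf711 MO replicate 1 (-0.043). Without both replicate 1 libraries znf711 was at 0.13. With the alternate-scaffold models added, an alternative chosen after the data were seen, kdm7ab was at -0.13, since the added rows hold most of the counts, and ran from -0.54 to 0.34 with a library left out. Between tools, limma-voom gave 0.38 for kdm7aa, against 1.33 with edgeR.

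The replicate block called 0 rows and gave -0.14 for kdm7aa, -1.31 for znf711, 0.26 for phf8, 0.36 for phf2 and 0.46 for kdm7ab. Same-numbered libraries deviated together with correlations of 0.135, 0.112 and 0.0139, and 2 of 3 znf711 MO libraries correlated best with the control of their own number, so by the rule used, that every pair exceed 0.1, the numbers were not taken to pair the samples. A shared day or batch of same-numbered samples was not tested.

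In the order of levels, with a library left out, the log2 difference ran from 0.63 to 0.76 for phf8 over phf2, from -0.10 to 1.04 for phf2 over znf711, from -0.42 to 0.53 for znf711 over kdm7aa and from 2.88 to 3.89 for kdm7aa over kdm7ab, where 5 libraries allow no p below 0.0625. For phf2 over znf711 it was 1.49 without division by length and 1.38 with the deposited FPKM (exact permutation p = 0.03125 each, against 0.6875 per kilobase of listed length). For kdm7aa over kdm7ab, 3.08 and 3.29 under the same settings had an exact permutation p of 0.0625 each. For znf711 over kdm7aa it was -0.56 without division by length and -1.21 with the deposited FPKM, and for kdm7aa over kdm7ab it was -1.44 with the added models. Among these settings phf2 over znf711 turned only without znf711 MO replicate 1, to -0.10. The causes of the turns other than that with the added models were not tested. In znf711 MO replicate 1, 30.9% of genes whose lowest count in the other 5 libraries lay between 60 and 120 were at 0. Whether a count of 0 there stands for absent RNA was not tested.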

Other observations

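The position of kdm7ab was not alone in holding counts under unnamed models of alternate scaffolds. Of 32020 Ensembl genes on the chromosomes, 3306 had such a model on a matching or unstated strand and within 1000 bases of their span, and for 1719 of them these models held more counts over the 6 libraries than the gene's own row. Of those, 227 were among the rows tested. Counts on alternate scaffolds made up 5.66%, 6.05% and 6.41% of all counts in znf711 MO replicates 1 to 3, against 5.55%, 5.92% and 5.16% in control replicates 1 to 3.

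The kdm7ab row and XLOC_073598 did not keep a fixed ratio over the libraries. The row held 93 counts beside 633 in znf711 MO replicate 3, against 24 beside 666 in control replicate 1. In znf711 MO replicate 1 it held 0 beside 87. There the binomial 95% interval of the models' share, 95.9% to 100%, covered the 96.2% to 96.6% of controls. XLOC_073598 by itself had a log2 fold change of -0.16 ± 0.69 (edgeR adjusted p = 0.9999).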
